A study of Mus musculus with 16 samples.

Results

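Gsdmc, Gsdmc2, Gsdmc3, Gsdmc4 and Gsdmd, mouse genes of the gasdermin family, were followed in the colonic epithelium. They were chosen by name, with earlier results of these data known, as 5 of the 13 family genes listed among the 45513 genes counted. Each of the 5 was found in every library. The 16 RNA sequencing libraries came from 8 Atoh1(WT)CreERT2; Rosa26tdTom/+ mice, males and females of 8 to 16 weeks on a C57BL/6 background. All were homozygous for an Atoh1 locus that makes CreERT2 downstream of the intact Atoh1 coding sequence and carried 1 copy of the tdTom reporter. All had received 1 mg of tamoxifen per day on 3 days, so neither population came from an animal without tamoxifen or Cre. Live EpCAM+ epithelial cells of each colon, from fractions enriched for crypts, were sorted into tdTom+ cells, in which Atoh1-driven Cre had switched on the reporter, and tdTom− cells, in which it had not. Each mouse gave 1 library of each population. The mice are called 1 to 8 here.

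Gasdermins are pore-forming proteins. A protease cuts the linker between the amino-terminal and carboxy-terminal parts, and the freed amino-terminal part inserts into the plasma membrane, where its pores release cell contents and can end in pyroptosis, a lytic form of cell death. GSDMD is cut by the inflammasome caspases and is the pore through which mature interleukin-1 family cytokines leave cells. GSDMC proteins can be cut by caspase-8, and in mice the Gsdmc genes of the intestinal epithelium are known to respond to type 2 cytokines.

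The sort and the libraries were examined first. Total counts were 16482530 to 24218367 in tdTom+ libraries and 18318172 to 20668605 in tdTom− libraries other than that of mouse 4, which held 45791503. All 8 goblet cell markers were higher in tdTom+ cells, from Zg16 (log2 fold change 3.56) to Muc2 (4.61), and their summed level was 49189 to 103033 CPM (counts scaled to the effective library size) against 2229 to 8663 CPM in tdTom− cells. All 10 absorptive cell markers were lower, from Fabp2 (−1.56) to Aqp8 (−5.18), with summed levels of 759 to 1150 against 8305 to 16720 CPM. All 7 enteroendocrine markers were lower too, from Gcg (−0.84) to Chga (−2.995), with summed levels of 279 to 750 CPM in tdTom+ and 1320 to 3797 CPM in tdTom− libraries, so these markers of another secretory cell type were present in both populations. The 4 stem cell markers, 3 of 5 tuft cell markers tested and 3 of 6 proliferation markers were also lower. Among all 15841 genes tested 25.5% were lower and 25.5% higher. In an edgeR fit with the mouse as a block, 4 tuft cell markers were lower, with Avil added (adjusted p = 0.0031). In that fit 5 proliferation markers were lower, with Mki67 (6.03e-05) and Top2a (9.34e-07) added, beside 28.9% of all genes tested. Immune markers summed to 7.96 to 14.3 against 11.9 to 37.7 CPM and stromal and endothelial markers to 4.96 to 11.5 against 7.70 to 20.7 CPM. The T cell genes Cd3e and Cd8a had 26 and 15 counts over all 16 libraries, whereas Ptprc, of the same immune list, had 1396. Of 8 immune markers 5 were tested, and 2 were lower in edgeR's test without a mouse term. They were Ptprc, at 2.17 against 6.23 CPM (log2 fold change −1.52, adjusted p = 2.28e-06), and Cd68 (−0.81, adjusted p = 0.0017). Lyz2 was added once mice were blocked (adjusted p = 1.62e-06), and Itgam and Itgae passed neither way.

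The 4 Gsdmc genes lie side by side on chromosome 15, all on the minus strand of GRCm38, between bases 63775968 and 63912297, a span of 136 kb. Gsdmc (ENSMUSG00000079025) occupies chr15:63775968-63808759, Gsdmc2 (ENSMUSG00000056293) chr15:63824346-63845177, Gsdmc3 (ENSMUSG00000055827) chr15:63857724-63878558 and Gsdmc4 (ENSMUSG00000055748) chr15:63891264-63912297. Gsdmd (ENSMUSG00000022575) is on the plus strand of the same chromosome at chr15:75862339-75867404, 11.9 Mb beyond the cluster. How alike the copies are decides what a read can tell about them, so the first 90 coding bases of the 4 Gsdmc genes are shown, from the start codon on, with capitals at each base that differs from Gsdmc2. They come from GENCODE M21 transcripts on GRCm38, and each run lies within the first coding exon, which is exon 2 of Gsdmc and exon 1 of the other 3 transcripts. The positions on the minus strand are chr15:63804503-63804592 for Gsdmc, chr15:63835854-63835943 for Gsdmc2, chr15:63869208-63869297 for Gsdmc3 and chr15:63902841-63902930 for Gsdmc4.
Gsdmc: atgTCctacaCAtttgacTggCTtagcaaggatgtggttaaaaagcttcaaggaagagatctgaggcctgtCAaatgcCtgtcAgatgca
Gsdmc2: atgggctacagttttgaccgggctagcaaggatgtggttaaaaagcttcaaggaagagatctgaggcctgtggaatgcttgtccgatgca
Gsdmc3: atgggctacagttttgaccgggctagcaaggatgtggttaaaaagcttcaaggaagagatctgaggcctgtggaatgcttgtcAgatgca
Gsdmc4: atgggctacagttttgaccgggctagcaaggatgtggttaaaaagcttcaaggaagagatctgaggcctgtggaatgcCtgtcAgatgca
In this stretch Gsdmc3 differed from Gsdmc2 at 1 base, Gsdmc4 at 2 bases and Gsdmc at 11.

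Over the whole coding sequences the same order held. Gsdmc2 and Gsdmc3, both 1440 coding bases long, were 97.1% identical and shared a run of 317 identical bases. Gsdmc4 was 93.5% identical to Gsdmc2 and 93.4% to Gsdmc3. Gsdmc was more distant, 85.9% to 87.1% identical to the other 3, and Gsdmd aligned with 47.0% to 48.3% identity to the Gsdmc genes. The reads were 50 bases long. Of the 1932 windows of 50 bases in the Gsdmc2 transcript, 922 (47.7%) occurred without a mismatch in a transcript of another gene. The same was true of 650 of 1394 windows (46.6%) for Gsdmc3, 748 of 1939 (38.6%) for Gsdmc4 and 386 of 2356 (16.4%) for Gsdmc, and all of these matches were within the Gsdmc cluster. All 1743 Gsdmd windows were found in no other gene. The Gsdmc3 transcript searched held 1443 bases, 1440 of them coding, whereas its reads were counted on 2328 exon bases. The Gsdmc2 transcript held 1981 bases, so the shares of windows do not cover the same parts of each gene. The authors counted primary alignments, so that a read with equally good places could be counted at any of them. The separate levels of the Gsdmc genes are therefore uncertain, those of Gsdmc2 and Gsdmc3 most of all, whereas the summed count of Gsdmc2, Gsdmc3 and Gsdmc4 does not depend on how reads were divided among these 3.

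All 5 gasdermin genes were lower in tdTom+ cells than in tdTom− cells, in 8 of 8 mice and without overlap between the populations. Transcripts of the 4 Gsdmc genes stood in tdTom+ cells at 19.0% to 19.9% of their mean tdTom− level, about 5-fold lower, and those of Gsdmd at 50.5%. Across all 15841 genes that passed the filter on low counts, 25.5% were lower in tdTom+ cells at an adjusted p under 0.01 (edgeR's quasi-likelihood test, Benjamini-Hochberg adjustment), 25.5% were higher, and 15.3% were lower without overlap, so a lower level was by itself common in this comparison. A fold change as low as that of Gsdmc3, the smallest of the 4 Gsdmc genes, was found with an adjusted p under 0.01 in 412 genes, 2.60% of those tested. In bulk libraries fewer expressing cells and less RNA per cell cannot be told apart. The smallest count of any member in any library was 142, so each passed the filter in both populations.

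Gsdmc4 was the most abundant member. Its level in tdTom− cells of mice 1 to 8 was 554, 732, 826, 605, 652, 830, 1597 and 609 CPM. In tdTom+ cells of the same mice it was 114, 123, 186, 120, 120, 169, 307 and 125 CPM. Mouse 7 was highest in both populations, and even its tdTom+ value was below the lowest tdTom− value. The mean was 158 ± 65.8 CPM for tdTom+ and 801 ± 338 CPM for tdTom− libraries (SD, n = 8 each), a log2 fold change of −2.34 ± 0.24 (SE, adjusted p = 2.75e-08).

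Gsdmc2 measured 374, 411, 599, 491, 488, 399, 936 and 359 CPM in tdTom− cells of mice 1 to 8. In tdTom+ cells it measured 56.7, 66.3, 134, 85.0, 96.6, 86.5, 180 and 70.4 CPM. Mouse 7 was again highest and mouse 3 second in both populations. The means were 96.9 ± 41.0 against 507 ± 190 CPM (SD, n = 8 each), a log2 fold change of −2.39 ± 0.24 (SE, adjusted p = 2.06e-08).

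Gsdmc3, the closest relative of Gsdmc2, measured 247, 277, 343, 295, 307, 260, 540 and 236 CPM in tdTom− cells. In tdTom+ cells it measured 38.7, 44.2, 77.9, 57.1, 58.1, 55.3, 117 and 50.6 CPM. The order of the mice at the top was the one seen for Gsdmc2. Its means of 62.3 ± 24.8 and 313 ± 98.0 CPM (SD, n = 8 each) gave a log2 fold change of −2.33 ± 0.21 (SE, adjusted p = 4.30e-09).

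Gsdmc was the least abundant member. It measured 55.6, 65.9, 82.6, 61.2, 63.1, 68.5, 145 and 53.4 CPM in tdTom− cells and 8.00, 9.82, 18.5, 11.9, 14.1, 13.6, 26.9 and 10.3 CPM in tdTom+ cells. The means were 14.1 ± 6.08 against 74.5 ± 30.0 CPM (SD, n = 8 each), with a log2 fold change of −2.41 ± 0.24 (SE, adjusted p = 1.82e-08). The sum of Gsdmc2, Gsdmc3 and Gsdmc4, which removes the division of reads among these copies, ran from 209 to 604 CPM (median 269) for tdTom+ libraries and from 1175 to 3073 CPM (median 1433) for tdTom− libraries. Its log2 fold change was −2.35 ± 0.23 (SE, adjusted p = 1.33e-08), within the range of the single genes.

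Gsdmd, whose protein is the pore of the canonical inflammasome, measured 127, 120, 102, 104, 148, 105, 109 and 135 CPM in tdTom− cells of mice 1 to 8. In tdTom+ cells it measured 56.8, 62.4, 55.9, 60.3, 69.4, 60.8, 54.8 and 59.3 CPM. The spread between mice was small, and mouse 7, highest for the Gsdmc genes, was here the lowest tdTom+ value. The means were 60.0 ± 4.63 against 119 ± 16.6 CPM (SD, n = 8 each), a log2 fold change of −0.99 ± 0.08 (SE, adjusted p = 5.07e-10). The mouse numbers form separate series, treated as possible batches, and the contrast was computed within the larger ones. In mice 1 to 3 it was −2.50 for Gsdmc, −2.43 for Gsdmc2, −2.43 for Gsdmc3, −2.32 for Gsdmc4 and −0.99 for Gsdmd, and in mice 5 to 8 it was −2.37, −2.33, −2.26, −2.35 and −1.02 in the same order.

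**Figure D1:**
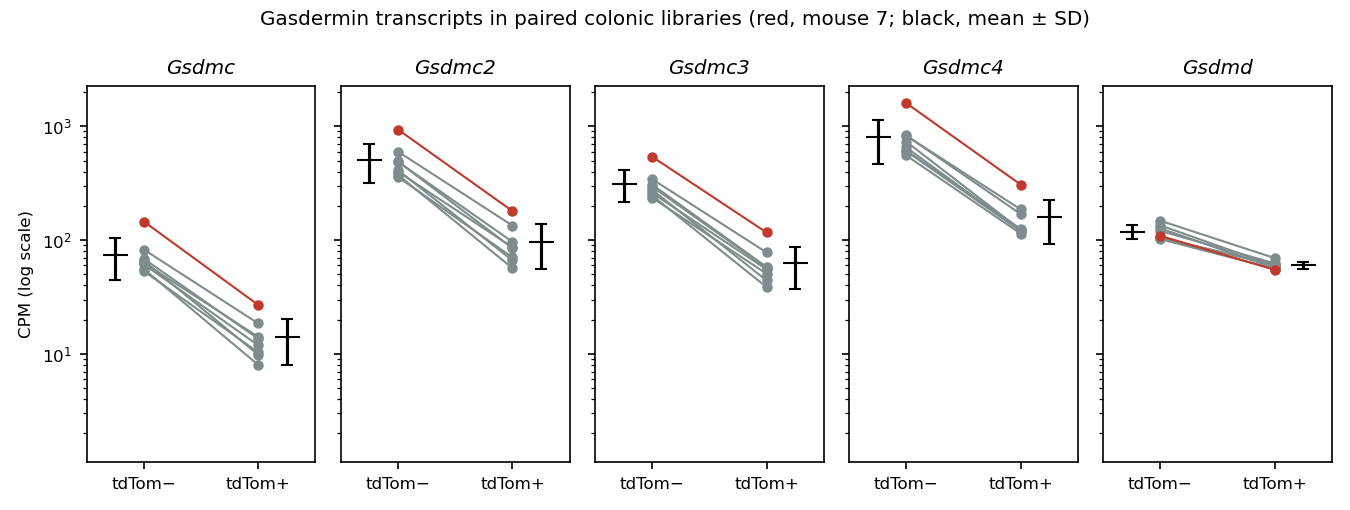
Level of each gasdermin gene in CPM (log axis) in tdTom− and tdTom+ libraries, with a line joining the 2 libraries of each mouse, mouse 7 in red, and black bars for mean ± SD of 8 mice. Every line falls from tdTom− to tdTom+, the 4 Gsdmc panels fall by about the same step, and the Gsdmd lines fall less and are closely bunched.

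The step of the Gsdmc genes was compared with that of Gsdmd within mice. The log2 ratio of tdTom+ to tdTom− CPM was lower for each Gsdmc gene than for Gsdmd in all 8 mice, with differences of −1.36 ± 0.19 for Gsdmc4, −1.38 ± 0.22 for Gsdmc3, −1.44 ± 0.21 for Gsdmc2 and −1.44 ± 0.24 for Gsdmc (mean ± SD of the difference, n = 8 mice). Each of these 4 differences had p = 0.0078 in an exact two-sided sign-flip permutation test, the smallest value that 8 mice allow, and 0.020 after adjustment over the 10 pairs of members. The 6 pairs among the Gsdmc genes differed by 0.072 or less on average in size, and the p-values of the same exact permutation test ran from 0.16 to 1. Differences in single mice reached −0.50 (Gsdmc against Gsdmc4), so a small difference among the paralogs was not detectable with 8 mice and shared reads.

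The proportions of the 3 close paralogs were also compared. Gsdmc4 made up 49.9% ± 4.06 of their summed counts in tdTom+ and 49.0% ± 4.10 in tdTom− cells, Gsdmc2 30.4% ± 2.99 and 31.3% ± 2.86, and Gsdmc3 19.7% ± 1.37 and 19.6% ± 1.51 (SD, n = 8 each). The share changed within a mouse by −0.97 ± 2.02 percentage points for Gsdmc2 (exact permutation p = 0.24), 0.08 ± 1.26 for Gsdmc3 (p = 0.85) and 0.90 ± 2.87 for Gsdmc4 (p = 0.53). Each of the 3 adjusted values was 0.73 or higher. None of the shifts exceeded the spread between mice.

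Per kilobase of exon the order of the members differed between populations. In tdTom− cells Gsdmc4 was at 384 ± 162 CPM per kb, Gsdmc2 at 219 ± 82.2, Gsdmc3 at 134 ± 42.1, Gsdmd at 66.9 ± 9.36 and Gsdmc at 31.0 ± 12.5 (SD, n = 8), and this order held in all 8 mice. These levels placed Gsdmc4 at rank 130, Gsdmc2 at 236, Gsdmc3 at 430, Gsdmd at 1007 and Gsdmc at 2230 among the 15841 genes tested. In tdTom+ cells Gsdmc4 remained first at 75.8 ± 31.5 CPM per kb and Gsdmc last at 5.88 ± 2.53. Between them stood Gsdmc2 at 41.9 ± 17.7, Gsdmd at 33.8 ± 2.61 and Gsdmc3 at 26.8 ± 10.7. Those middle places were not separated beyond the spread between mice, since Gsdmc2 exceeded Gsdmd in 5 of 8 mice and Gsdmd exceeded Gsdmc3 in 6. Ranks in tdTom+ cells were 928 for Gsdmc4, 1701 for Gsdmc2, 2078 for Gsdmd, 2579 for Gsdmc3 and 7922 for Gsdmc.

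The residual Gsdmc level in tdTom+ cells was set beside the absorptive markers. Within mice the tdTom+ level was 14.4% to 22.4% of the tdTom− level for Gsdmc, 15.1% to 22.4% for Gsdmc2, 15.7% to 22.7% for Gsdmc3 and 16.8% to 22.5% for Gsdmc4, against 44.0% to 57.8% for Gsdmd. The 10 absorptive markers stood in tdTom+ cells at 2.77% (Aqp8) to 34.0% (Fabp2) of their tdTom− mean. Only Fabp2 and Slc26a2 (28.3%) stood above the Gsdmc genes. Krt20 was at 10.2%, and the remaining markers were at 2.77% to 5.61% (Car1), so most of the list lay below the Gsdmc genes. The part of absorptive cells in the tdTom+ Gsdmc counts was not tested.

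The level of the Gsdmc genes differed between mice more than 2-fold, and the same mice were high in both populations. Over the 8 mice the log2 CPM of the summed Gsdmc2 to Gsdmc4 in tdTom+ and in tdTom− cells correlated with Pearson's r = 0.96 (exact permutation p = 0.00067) and Spearman's rho = 0.93 (p = 0.0022). The separate genes gave r = 0.91 for Gsdmc (exact permutation p = 0.0019), 0.94 for Gsdmc2 (p = 0.0011), 0.93 for Gsdmc3 (p = 0.0024) and 0.97 for Gsdmc4 (p = 0.00064), with rho from 0.76 to 0.91. All 5 kept an adjusted p of at most 0.0029 for r and 0.044 for rho over the 6 relations computed. Without the 2 mice farthest from the median tdTom− level r was 0.76 for the sum, 0.61 for Gsdmc, 0.72 for Gsdmc2, 0.88 for Gsdmc3 and 0.87 for Gsdmc4, so the relation rested in part on those mice, of which mouse 7 was 1 in each case. For Gsdmd r was 0.61 (exact permutation p = 0.10) and rho 0.40 (p = 0.33), and without 2 mice r was 0.11. The series of numbers hold 3, 1 and 4 mice, too few for the relation within each.

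**Figure D2:**
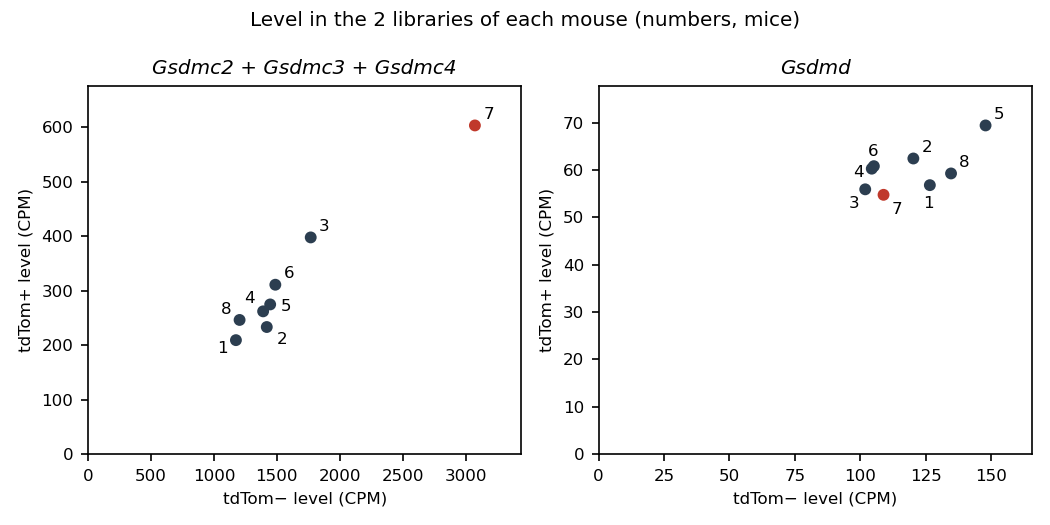
Level in tdTom+ (y axis) against tdTom− cells (x axis) of the same mouse, in CPM on linear axes from 0, for the sum of Gsdmc2, Gsdmc3 and Gsdmc4 (left) and for Gsdmd (right); numbers name the mice and mouse 7 is red. For the sum, mouse 7 stands at 3073 and 604 CPM, away from the other 7 mice at 1175 to 1769 and 209 to 398 CPM, whereas for Gsdmd it has the lowest tdTom+ level, at 54.8 CPM against 55.9 to 69.4, and a tdTom− level of 109 CPM within the range of the others.

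Mouse 7 was not high for the absorptive marker list. Its summed absorptive markers were 786 CPM in tdTom+ cells, against 759 to 1150 in the other 7 mice, and 10231 CPM in tdTom− cells, against 8305 to 16720. Its summed goblet markers were the highest of the 8 mice in both populations, 103033 CPM against 49189 to 67831 in tdTom+ and 8663 CPM against 2229 to 5737 in tdTom− cells. Clca1 and Fcgbp, the most abundant genes of that list, ran from 8741 to 43567 and from 9984 to 31777 CPM in tdTom+ libraries. The sum therefore follows them most and does not show that every goblet marker was high in mouse 7. Its tuft cell marker sum was the highest in tdTom− cells, 125 CPM against 73.9 to 121 in the others, but within their range in tdTom+ cells, 59.0 CPM against 42.2 to 92.1. Its immune marker sum of 10.7 and 17.3 CPM lay within the range of the others. The part of any of these in the Gsdmc level of mouse 7 was not tested. The contrast between the populations was as large without mouse 7, at −2.39 for Gsdmc, −2.39 for Gsdmc2, −2.36 for Gsdmc3 and −2.33 for Gsdmc4 on the log2 scale.

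The rest of the family moved in both directions. Of 8 further gasdermin genes 3 passed the filter on low counts, of which 2 were lower and 1 higher in tdTom+ cells. The share among all genes tested was 25.5% in each direction. Gsdme (ENSMUSG00000029821, chr6:50189369-50263862), another pore-forming gasdermin, was higher in 8 of 8 mice. Its tdTom+ levels were 24.5 to 42.0 CPM with a median of 26.7, above tdTom− levels of 8.20 to 12.99 with a median of 9.68, and the log2 fold change was 1.57 ± 0.11 (SE, adjusted p = 1.89e-10). Gsdma (ENSMUSG00000017204, chr11:98664351-98677708) ranged over 0.357 to 1.35 CPM (median 0.641) for tdTom+ and 5.48 to 22.2 CPM (median 13.6) for tdTom− libraries. Its log2 fold change was −4.37 ± 0.30 (SE, adjusted p = 7.10e-11), but on 7 to 24 counts per tdTom+ library. Gsdmcl-ps, a pseudogene of the same cluster on the opposite strand 2151 bases beyond Gsdmc4, had a log2 fold change of −2.32 ± 0.29 (SE, adjusted p = 6.01e-07), near those of the Gsdmc genes. Its levels were 0.356 to 1.29 against 2.39 to 7.78 CPM, on only 7 to 21 counts per tdTom+ library. With 47 to 149 counts per tdTom− library it passed the filter, like Gsdma, through its tdTom− libraries.

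The other 5 family genes had too few counts for the test. Gsdma3 had 0 counts in all 8 tdTom+ libraries and 1 to 13 in each tdTom− library, 61 in all. With counts pooled over each group and the floor set at 3 counts over the tdTom+ group, its tdTom+ level was at least 16.6-fold lower. This limit does not cover the spread between mice, since tdTom− cells of mice 4 and 5 had only 2 and 1 counts. Gsdma2 had 0 to 2 counts per tdTom+ library and 6 to 15 per tdTom− library. Gsdmcl1 and Gsdmcl2, which lie between the Gsdmc genes on the opposite strand, had 14 and 78 counts in all 16 libraries together, and Pjvk, a gasdermin of hair cells, had 2.

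**Figure D3:**
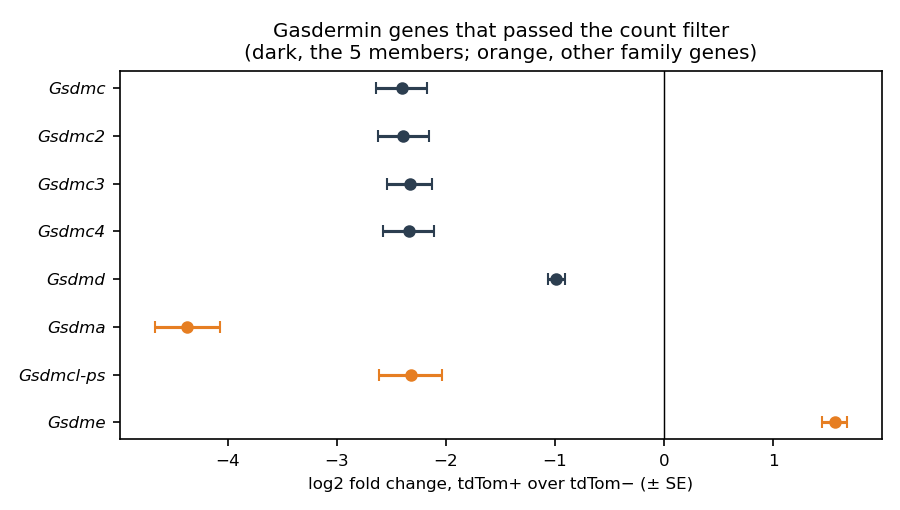
Log2 fold change of tdTom+ over tdTom− cells (x axis, bars ± SE) for the 8 gasdermin genes that passed the count filter. The 4 Gsdmc genes and Gsdmcl-ps sit between −2.32 and −2.41, Gsdmd at −0.99, Gsdma at −4.37 and Gsdme, the only one of the 8 to the right of 0, at 1.57. Gsdma and Gsdmcl-ps had only 7 to 24 and 7 to 21 counts per tdTom+ library.

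Around the cluster the fold change was not uniform. Of 15 genes within 500 kb, Gsdmc genes included, 8 passed the filter. Fam49b, 16.8 kb beyond Gsdmc4 and on the same strand, was higher in tdTom+ cells, at 49.2 ± 2.84 against 30.1 ± 0.67 CPM (log2 fold change 0.71 ± 0.05 SE, adjusted p = 2.53e-11). Asap1, 175 kb away, was lower, at 9.89 ± 1.30 against 27.9 ± 5.67 CPM (−1.49 ± 0.12 SE, adjusted p = 7.56e-10; SD, n = 8 each). Gm5473, on the other side, was at 1.11 ± 0.28 and 0.97 ± 0.18 CPM and did not pass (adjusted p = 0.48).

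Upstream sequence was at hand for Gsdmc3 alone of the 5 members. The 250 bases before its start in the RefSeq annotation, chr15:63878559-63878808 on the minus strand of GRCm38.p6, are shown because they are the only promoter of the cluster that could be read, with a match to TATATAA in capitals.
Gsdmc3 promoter: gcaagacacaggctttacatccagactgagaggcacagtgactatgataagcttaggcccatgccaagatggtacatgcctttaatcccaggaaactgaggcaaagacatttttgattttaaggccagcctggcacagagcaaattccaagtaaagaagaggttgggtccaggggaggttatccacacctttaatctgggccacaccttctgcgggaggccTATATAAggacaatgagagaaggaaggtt
Searched on both strands, the window held no match to the 6 motifs listed for the cluster. Of 32851 promoter windows of the same length, 5.85% held the STAT6 motif (TTC and GAA 4 bases apart) and 2.98% held the IRF motif (a pair of TTTC 2 bases apart). The E-box CAGCTG was found in 13% of them, the CDX2 letters TTTATG in 10.8%, the HNF4A letters CAAAGT in 12.6% and the GATA letters TTATCT in 9.99%. TATATAA, added after the sequence had been seen, began 29 bases before the start and was found in 3.04% of the windows. These letters describe the window and were not tied to a measurement.

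The genes whose pattern over the 16 libraries was most like that of a member were sought among 10058 others with a mean of at least 10 CPM, by the root mean square difference of centered log2 CPM. For each Gsdmc gene the nearest 3 were the other 3 Gsdmc genes, at 0.093 (Gsdmc2 and Gsdmc3) to 0.24 (Gsdmc2 and Gsdmc4). Gsdmc and Gsdmc2 were at 0.11. Of the Gsdmc2 windows 288 occurred in Gsdmc, against 717 in Gsdmc3 and 560 in Gsdmc4, and the part of shared reads in these distances was not tested. Outside the cluster the next nearest, at 0.35 to 0.40, were Evpl, a component of the cornified envelope, for Gsdmc and Gsdmc2, Mpzl3 for Gsdmc3 and Sprr2a3, a small proline-rich protein, for Gsdmc4. For Gsdmd the nearest were Rhot2 (0.10), Epb41l1 (0.10) and Agrn (0.11), which were lower in tdTom+ cells by a similar step, at −0.99, −1.03 and −0.97 on the log2 scale.

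The proteases that cut gasdermins were mostly lower in tdTom+ cells. Of 10 listed, 6 passed the filter, of which 5 were lower and 1 higher, beside 25.5% lower and 25.5% higher among all genes tested, with a median log2 fold change of −0.71 against 0.004 over all genes tested. Casp4, the caspase that senses cytosolic lipopolysaccharide and cuts GSDMD, was at 13.1 ± 1.94 against 27.0 ± 4.62 CPM (−1.04 ± 0.10 SE, adjusted p = 2.40e-08). Casp1, the caspase of canonical inflammasomes, was at 70.1 ± 8.99 against 135 ± 16.3 CPM (−0.95 ± 0.08 SE, adjusted p = 4.04e-09), a step close to that of Gsdmd. Casp8, which can cut GSDMC, was lower by a smaller step, at 82.3 ± 6.05 against 106 ± 6.76 CPM (−0.36 ± 0.05 SE, adjusted p = 7.53e-06; SD, n = 8 each). Casp6 was the 1 that was higher, at 0.40 ± 0.07 (SE, adjusted p = 2.33e-05). The leukocyte proteases Elane and Ctsg had no counts in any library, and Gzma and Gzmb had 12 and 7 counts over all 16. All but Casp1, Casp4 and Casp8 were named after their values were seen.

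Inflammasome sensors split by gene. Of 13 listed genes 10 were tested, 6 were lower and 1 was higher, beside 25.5% in each direction among all genes tested, and the median log2 fold change was −0.30. Nlrp9b, an intestinal epithelial sensor, was found mainly in tdTom− cells, at 1.69 ± 0.85 against 60.1 ± 17.5 CPM (−5.14 ± 0.24 SE, adjusted p = 1.63e-13). Nlrp6, a sensor of the colonic epithelium, was at 76.4 ± 11.7 against 311 ± 27.6 CPM (−2.02 ± 0.08 SE, adjusted p = 3.33e-14), without overlap between the populations. Naip1 (−1.61 ± 0.10 SE) and Nlrp1b (−1.03 ± 0.13 SE) were also lower. Pycard, the adaptor ASC through which sensors recruit caspase-1, differed little, at 121 ± 24.4 against 153 ± 10.8 CPM (−0.34 ± 0.10 SE, adjusted p = 0.0049; SD, n = 8 each), lower in 7 of 8 mice. Aim2, at −0.26, was lower and Naip2, at 0.20, was higher; both were named after their values were seen. Naip5 was at 0.19 with an adjusted p of 0.030, and of 0.0050 once the mouse was entered as a block.

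Among 6 cargo and membrane rupture genes 4 were tested and 1 was lower, a share near the 25.5% of all genes tested. It was Il18, a cytokine that leaves through GSDMD pores, at 15.3 ± 3.84 against 62.3 ± 13.8 CPM (SD, n = 8 each; −2.02 ± 0.16 SE, adjusted p = 6.36e-10). Il1b, another such cytokine, had too few counts for the test, with 0 to 3 counts per tdTom+ library and 5 to 35 per tdTom− library. A list of genes for membrane repair and for limits on pores held 7 genes, all tested. In edgeR's test 4 were lower and 0 higher, beside 25.5% of all genes in each direction. When the mouse was a block 5 were lower and 0 higher, beside 28.9% lower and 28.4% higher among all genes. The lowest was Serpinb1a, a protease inhibitor, at −0.85 ± 0.11 (SE, adjusted p = 8.85e-07), and the others were at −0.29 to −0.02 on the log2 scale.

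The next list held the receptor subunits and signaling genes for interleukin-4 and interleukin-13, cytokines to which the Gsdmc genes are known to respond. Of 6 genes 5 were tested, 3 were higher and 1 lower, beside 25.5% in each direction among all genes tested. Il13ra1, a receptor subunit, was at 291 ± 32.2 against 93.4 ± 8.55 CPM (SD, n = 8 each; 1.64 ± 0.07 SE, adjusted p = 9.93e-14), higher in 8 of 8 mice. Il4ra, the shared subunit, was higher, at 0.96, and the kinase gene Jak1 at 0.41, whereas Stat6, the transcription factor of the pathway, was lower, at −0.42 on the log2 scale. Tyk2 was at 0.19 with an adjusted p of 0.012, and of 0.0012 in the blocked fit. Of the 4 regulators of Gsdmd transcription listed 1 was lower, again near the share of all genes; it was Irf1, at −0.90 ± 0.08 (SE, adjusted p = 2.66e-09). Irf2 was at −0.16 with an adjusted p of 0.047, and of 0.0037 in the blocked fit, and Nfkb1 and Rela did not pass in either fit. Genes of these last 4 lists other than Il18 and Il13ra1 were named after their values were seen.

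**Figure D4:**
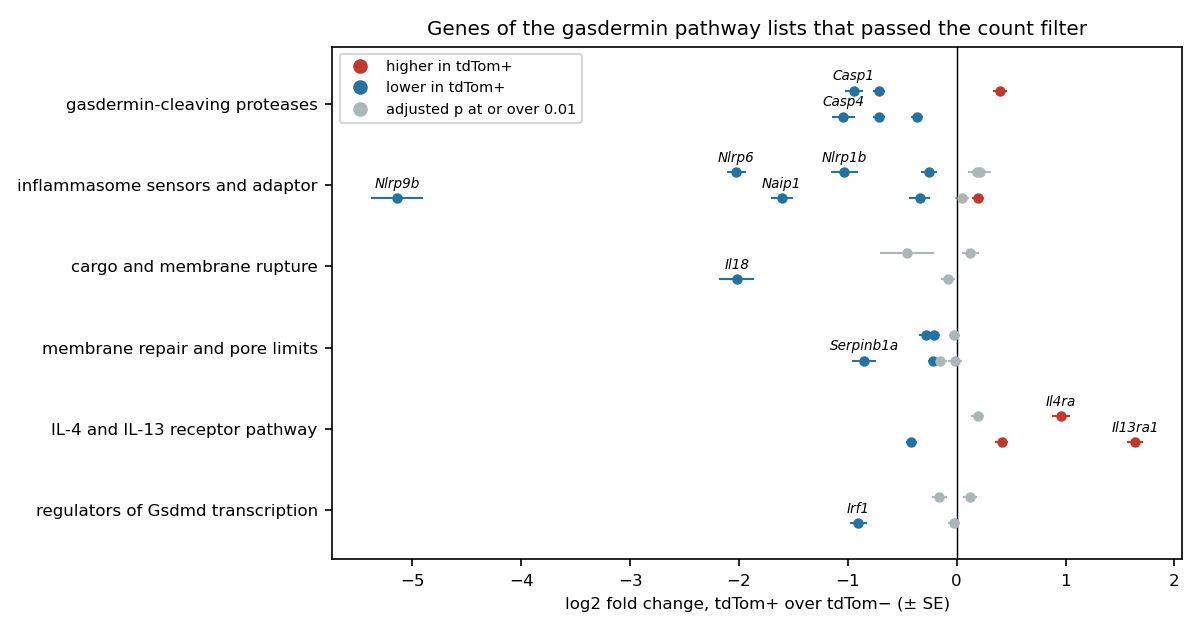
Log2 fold change of tdTom+ over tdTom− cells (x axis, bars ± SE) for each gene that passed the count filter in 6 lists of genes around the gasdermins, colored by the edgeR call. Nlrp9b at −5.14, Nlrp6 and Il18 at −2.02 lie farthest to the left, and Il13ra1 at 1.64 lies farthest to the right.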

How the data were processed

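RNA was sequenced as stranded mRNA libraries with single-end reads of 50 bases. Per the labels and file headers, the authors aligned reads with TopHat2 2.1.1 to GRCm38.p3 and counted them on exons by strand with featureCounts (version 1.5.0-p1 in the headers, Subread 1.5.2 in the processing notes), keeping primary alignments. The deposited values are raw counts per gene, one table per library, without normalization. Symbols of 44585 genes came from GENCODE M21.

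Populations and mouse numbers came from the sample labels. The members and gene lists were chosen with earlier results of these data known. The counts were compared with edgeR 4.0.16 (filterByExpr, TMM normalization, glmQLFTest, no mouse term, Benjamini-Hochberg over 15841 genes, threshold 0.01); standard errors were derived from the F statistic. CPM are TMM-scaled, and log2 CPM of single libraries used a prior count of 2. Libraries of a mouse came from the same animal, and their deviations from the population means correlated across genes at 0.22 or more within every mouse and at 0.17 or less between mice, so values from a fit blocked by mouse are given where they change a call. Members and paralog shares were compared within mice by exact sign flips. The named genes are all gasdermin genes, list genes past the threshold with a log2 fold change over 1 in size plus Casp1, Casp4, Casp8, Pycard and Nlrp6, cluster neighbors past the filter, the 3 most similar genes, and the extremes of marker lists. Coding sequences were aligned with mafft 7.526. Alternatives used DESeq2 1.42.0, limma 3.58.1 and other filters, scalings and subsets of mice. The relation over mice, the marker sums of mouse 7 and the TATATAA search were added after seeing the data. Each fit was run on simulated counts with the same dispersion for all genes and no effect of the mouse, a simpler setting than these paired libraries. Depth limits the genes near 0 counts, and floors of 3 counts cover counting error only. Small intestinal samples are not analysed here, and values of some listed genes are not reported here.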

Additional observations from a re-analysis of the deposited data

Results flagged for a closer look

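Of 18 groups of 8 libraries examined, 8 held a value far from the other 7 by Dixon's gap test, where chance gives about 1 in 20; the genes of the cluster share reads and mice, so these are not separate events. In tdTom− cells mouse 7 stood highest for Gsdmc (145 CPM, the others 53.4 to 82.6), Gsdmc2 (936 CPM, 359 to 599), Gsdmc3 (540 CPM, 236 to 343), Gsdmc4 (1597 CPM, 554 to 830), the summed Gsdmc2, Gsdmc3 and Gsdmc4 (3073 CPM, 1175 to 1769) and Gsdmcl-ps (7.78 CPM, 2.39 to 4.18). In tdTom+ cells mouse 7 stood highest for Gsdmc4 (307 CPM, 114 to 186). Gsdme was highest in tdTom+ cells of mouse 1 (42.0 CPM, 24.5 to 32.8).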

How the results depend on the processing

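The 5 members and the summed Gsdmc2 to Gsdmc4 were lower with an adjusted p under the threshold in all 18 alternatives run: from −2.50 to −2.36 for Gsdmc, −2.43 to −2.33 for Gsdmc2, −2.43 to −2.26 for Gsdmc3, −2.37 to −2.31 for Gsdmc4, −1.02 to −0.95 for Gsdmd and −2.38 to −2.31 for the sum, on the log2 scale. The alternative with a threshold of 0.05 reused the main fit, so it could not change these calls. With the mouse as a block in the fit the values were −2.41, −2.41, −2.36, −2.34, −0.98 and −2.37. Their SE were 0.069, 0.066, 0.065, 0.056, 0.054 and 0.06 in the same order. Apart from the genes named with the block in the report, and Avil, Mki67, Top2a, Lyz2 and Chmp2a, which then also passed, the block changed no call of a listed gene. With mice 1 to 3 only, 2546 genes were higher and 2559 lower, against 4032 and 4042, on fewer libraries. Some small differences among the Gsdmc genes changed sign, none of them past the threshold before or after: Gsdmc minus Gsdmc2 was −0.006 with a prior count of 0.5 and ran from −0.026 to 0.018 with each mouse left out, Gsdmc3 minus Gsdmc4 from −0.045 to 0.034, the share of Gsdmc3 from −0.16 to 0.45 percentage points and that of Gsdmc4 from −0.014 to 1.21. Gsdmc minus Gsdmc3 ran from −0.096 to −0.029 and Gsdmc minus Gsdmc4 from −0.12 to −0.011; without mouse 5 these had an unadjusted exact permutation p of 0.031 and 0.016, against 0.34 and 0.43 with all 8 mice, and the cause was not tested.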
